A study of Mus musculus with 6 samples.

Results

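The genes described here encode, in the cell nucleus, the protein subunits of the mitochondrial oxidative phosphorylation system. They were chosen by symbol: every mouse gene whose symbol starts with Ndufa, Ndufb, Ndufc, Ndufs, Ndufv, Sdha, Sdhb, Sdhc, Sdhd, Uqcr, Cox4, Cox5, Cox6, Cox7, Cox8 or Atp5, and the genes Cyc1 and Cycs. The rule found 102 of the 25112 named genes in the authors' deposited table, with 154 RefSeq transcripts among them. They comprise 36 subunit genes of complex I, 4 of complex II, 9 of complex III, 20 of complex IV and 17 of complex V. The others are cytochrome c, 12 assembly factors whose symbols share a prefix, and 3 pseudogenes or retrocopies.

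RNA sequencing compared wild-type C57BL/6 primary mouse epidermal keratinocytes, the cells that form the outer layer of the skin, transfected with pro-miR-148a (3 libraries) or with miR-Control (3 libraries). Pro-miR-148a supplies the microRNA miR-148a, and miR-Control is the control small RNA. Cells of both groups came from pups at postnatal day 1 to 3, were grown in medium with 0.05 mM calcium, received 200 nM of the small RNA and were collected after 48 h. The labels do not say whether the libraries came from separate cultures or pups, so the p-values may measure technical spread. The label of the third pro-miR-148a library repeats the first number of the first one beside its own replicate number, and whether these libraries share a source is not stated.

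The authors' deposited table gives 1 base mean per transcript (the mean normalised count over all libraries compared), together with a log2 fold change, the standard error (SE) of that change and an adjusted p-value, and no value per library. Values per sample and per group therefore cannot be shown, and library depth is unknown. A gene is called changed where the authors' adjusted p was under 0.05, and each gene is represented by its transcript with the highest base mean. Which group is the numerator of the fold changes is not named in that table. They are read here with the sign turned, so that a positive value is higher with pro-miR-148a. This follows the order of words in the table's title. Under this reading, the 436 tested genes with the longest miR-148a seed match in the 3′ untranslated region (UTR) lay at a median of -0.10 (log2 fold change), and the 6139 genes with no match at 0.01. Genes with a 7-letter match lay at -0.05 (1144 genes) and -0.04 (692), and the 1632 with only a 6-letter match at 0.01. Median UTR length was 2393.5 bases for the longest match and 807 for no match. The part of UTR length in these medians was not tested. Every "higher" and "lower" below rests on this reading and would turn together with it.

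Oxidative phosphorylation passes electrons from NADH and succinate through complexes I, II, III and IV to oxygen. Complexes I, III and IV pump protons across the inner mitochondrial membrane, and the proton gradient drives ATP synthesis by complex V. The nucleus encodes most subunits, which must be made together with a small set of mitochondrially encoded ones. In the epidermis, mitochondrial respiration is active in the basal, proliferating cells and takes part in their differentiation.

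Most of these genes held no match to the miR-148a seed. The sequences are shown because a match is a possible direct link between the microRNA and a transcript. In the mature miR-148a-3p (RefSeq, GRCm38.p6) the seed, bases 2 to 8, is in capitals. In the 3′ UTR windows of mouse transcripts (GENCODE M21, written as DNA) the capitals mark the letters that pair with it.
miR-148a-3p: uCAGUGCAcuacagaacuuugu
Cox5b: ataaagattagccatTGCACTGgctcctcc
Ndufaf2: tatacagaggaacacTGCACTGccaccatg
Ndufaf4: cagtccccaataaacTGCACTGcaatcct
Ndufv1, first match: catgtcaaccaccccTGCACTGtggaggaa
Ndufv1, second match: gctaatggacttcgaTGCACTGgtgcaggc
The UTR searched was the longest of any annotated coding transcript of the gene. It need not be that of the transcript counted, in which the same letters may be coding sequence. No member's longest annotated 3′ UTR held the 8-letter match TGCACTGA. The 7-letter match TGCACTG occurred in 4 members, the 7-letter match GCACTGA alone in 4, the 6-letter match GCACTG alone in 8 and none of these in 83, while 3 members had no annotated 3′ UTR. Of the 74 members tested with such a UTR, 62 held none. Over all tested genes with an annotated 3′ UTR, 436 held TGCACTGA and 1144 TGCACTG without it. A further 692 held GCACTGA alone, 1632 GCACTG alone, and 6139 none. The median 3′ UTR of the members was 294 bases, against 1261 bases over all genes tested.

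Of the 4 genes with TGCACTG, Ndufaf4, a complex I assembly factor, was higher with pro-miR-148a by 0.39 ± 0.10 on the log2 scale (SE), with an adjusted p of 0.000652 by the authors' deposited table. Its match starts at base 3013 of a 3026-base UTR. Cox5b, a complex IV subunit with a match at base 61 of 372, had a log2 fold change of 0.18 ± 0.07 and missed the threshold (adjusted p = 0.0553). Ndufv1, the complex I subunit that binds NADH, had a value of -0.02 ± 0.06 (adjusted p = 0.882). Its matches lie at bases 503 and 667 of the 1143-base UTR searched. Whether they lie in the 3′ UTR or the coding sequence of the transcript counted was not tested. Ndufaf2, another complex I assembly factor, was not tested, with a base mean of 0.33. All 4 members called lower were among those with no match, as were 62 of the 76 members tested. Of the 22 higher members, 3 carry a match of any of these kinds, Ndufaf4, Cyc1 and Atp5b, and 19 carry none. All 22 would be lower if the sign were turned back, with or without a match.

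Most of the oxidative phosphorylation genes that changed were higher with pro-miR-148a, and the changes were small. Of the 102 members, 76 carried an adjusted p (authors' deposited table). Of these, 22 were higher (28.9%, against 16.7% of all 11038 genes tested), 4 were lower (5.26%, against 16.8% of all genes tested) and 50 did not pass. Positive values were seen in 51 of the 76 (67.1%), against 48.9% of all genes tested. The median log2 fold change was 0.09 in the members and -0.01 in all genes. Members lean to high counts, where calls are more frequent, so the same counts are given at a base mean of at least 1000. There, 21 of 51 members were higher (41.2%, against 31.7% of 3569 genes) and 3 were lower (5.88%, against 24.2%), and the median was 0.10 in the members, against 0.05 in all genes. At this depth the members stood further below the background for lower calls than above it for higher ones.

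The 22 higher members differed by 1.14-fold to 1.38-fold, with a median of 1.23-fold, against a median of 1.37-fold over all genes called higher. At base means of at least 1000, the median of all genes called higher was 1.28-fold. The 4 lower members had log2 fold changes from -0.85 to -0.32, up to 1.80-fold. With a difference of at least 25% (the higher group over the lower) also asked for, 8 of the 76 members tested were higher (10.5%, against 11.8% of all genes tested) and 4 were lower (5.26%, against 13.9%). Under that condition the share of higher members was no longer above that of all genes. No member reached 2-fold in either direction. The 27 members at a base mean of at least 1000 that did not pass differed by at most 1.14-fold, and their 95% intervals reached at the extremes from -0.33 to 0.37 on the log2 scale. On either side of the threshold lay Atp5e (adjusted p = 0.0284) and Ndufc1 (0.0341) inside, and Uqcrh (0.0526) and Cox5b (0.0553) outside.

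**Figure D1:**
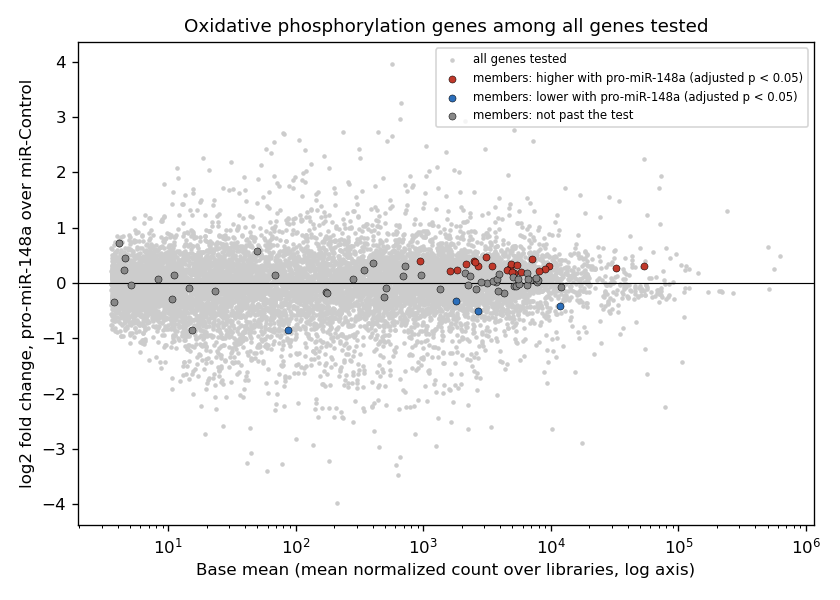
Log2 fold change (pro-miR-148a over miR-Control) against base mean (log axis) for the 11038 genes tested (light grey) and the 76 members tested (large points). The 22 higher members form a narrow band above 0 at high base means, and the 4 lower members lie below it, all within the spread of the other genes.

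Complex I, which oxidises NADH and hands its electrons to ubiquinone, held calls in both directions. Of its 24 subunit genes tested, 11 were higher (45.8%, against 16.7% of all genes tested), 3 were lower (12.5%, against 16.8%) and 10 did not pass. The median log2 fold change was 0.17. At a base mean of at least 1000, 52.4% were higher, against 31.7% of all genes. By adjusted p, the clearest rise was that of Ndufb7, an accessory subunit of the membrane arm, at 0.46 ± 0.08 (1.38-fold, adjusted p = 1.18e-08 by the authors' deposited table). Among the core subunits, which carry out electron transfer, Ndufs3 was higher by 0.38 ± 0.08 (adjusted p = 4.99e-06). Ndufv1, described with its seed matches, did not pass (-0.02 ± 0.06). Of the 7 nuclear core subunits 3 were tested, and Ndufs3 was the one called.

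The other higher genes of complex I were accessory subunits. Ndufa3 (0.39 ± 0.10) and Ndufa8 (0.30 ± 0.07) belong to the membrane arm. Ndufa9 (0.35 ± 0.07) sits near the ubiquinone site, and Ndufs4 (0.35 ± 0.08), whose loss in mice gives a Leigh-like encephalopathy, sits near the NADH site. Ndufb6 (0.31 ± 0.07), Ndufb3 (0.23 ± 0.08), Ndufc1 (0.22 ± 0.09), Ndufa11 (0.27 ± 0.07) and Ndufa10 (0.19 ± 0.06) are membrane arm subunits too. The higher subunits were thus spread over both arms of the complex.

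The 3 lower genes of complex I were accessory subunits as well. Ndufa6, which holds the mitochondrial acyl carrier protein on the matrix arm, was lower by 0.51 on the log2 scale (-0.51 ± 0.08, 1.42-fold, adjusted p = 5.62e-09 by the authors' deposited table). Ndufa1, a small X-linked subunit needed for assembly, had a value of -0.32 ± 0.08 (adjusted p = 0.000286). Their base means were 2698 for Ndufa6 and 1818 for Ndufa1. The call for Ndufb8, a subunit of the distal membrane arm, rested on fewer reads: its transcript NM_001347447 had a base mean of 87.4 and a value of -0.85 ± 0.25 (adjusted p = 0.00308). The other transcript of Ndufb8, NM_026061, had nearly the same base mean, 85.4, and a value of 0.11 ± 0.25 (adjusted p = 0.804). The 2 transcripts of Ndufb8 thus lay on opposite sides of 0, and the gene as a whole cannot be given a direction.

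Complex II, succinate dehydrogenase, links the tricarboxylic acid (TCA) cycle to the respiratory chain. Its flavoprotein Sdha, where succinate is oxidised, was higher by 0.43 ± 0.06 (1.35-fold, adjusted p = 2.23e-10 by the authors' deposited table). The membrane anchors Sdhc (0.04 ± 0.07) and Sdhd (0.03 ± 0.08) did not pass, and Sdhb, the iron-sulfur subunit, was listed at 0. In complex III, which passes electrons from ubiquinol to cytochrome c, 2 of 8 genes tested were higher (25%, against 16.7% of all genes tested) and none was lower. At a base mean of at least 1000 the share higher was 28.6%, against 31.7% of all genes. The 2 higher genes were Uqcrc1, a core protein, at 0.30 ± 0.06 (adjusted p = 1.1e-05), and Cyc1, the haem-bearing cytochrome c1, at 0.19 ± 0.06 (adjusted p = 0.0123). Uqcrc2, the other core protein, had a value of 0.06 ± 0.07 and Uqcrfs1, the Rieske iron-sulfur protein, one of -0.03 ± 0.06. Uqcrh, the hinge protein, had a value of -0.18 ± 0.08. Cycs, the soluble electron carrier between complexes III and IV, had a value of -0.15 ± 0.07 and did not pass (adjusted p = 0.0974).

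Complex IV, cytochrome c oxidase, reduces oxygen to water, and its nuclear subunits surround a mitochondrially encoded core. Of its 14 genes tested, 2 were higher (14.3%, against 16.7% of all genes tested) and 1 was lower (7.14%, against 16.8%), so higher calls were no more frequent in complex IV than over all genes. Cox5a was higher by 0.33 ± 0.06 (adjusted p = 1.68e-07 by the authors' deposited table) and Cox8a by 0.25 ± 0.06 (1.19-fold, adjusted p = 0.0004). Ndufa4, first assigned to complex I and now counted as a complex IV subunit, had a value of -0.41 ± 0.06 (1.33-fold, adjusted p = 1.14e-10). At a base mean of 11747, Ndufa4 had the smallest adjusted p of all members, in the direction opposite to most. Cox6a1 (-0.08 ± 0.07, base mean 11929) and Cox7c (0.06 ± 0.06, base mean 7981) did not pass.

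Several complex IV subunits have a second gene, known mostly from heart and skeletal muscle, testis or hypoxic cells, and none of the 4 such genes tested passed. Ndufa4l2, the hypoxia-induced relative of Ndufa4, had a value of 0.36 ± 0.15 at a base mean of 403.6 (adjusted p = 0.0583 by the authors' deposited table), against -0.41 ± 0.06 for Ndufa4 itself. The test of the difference between these genes was not made, since the table holds no value per library. Cox6a2 and Cox7a1, muscle forms, had values of -0.84 ± 0.39 and -0.14 ± 0.38 at base means of 15.3 and 23.2. Cox4i2, the form known from lung, had 0.15 ± 0.39 at a base mean of 11.02. At such counts a change as small as those of the common subunits was not detectable. Cox6b2 (6 transcripts), Cox7a2l (2 transcripts) and Cox8b (1 transcript) had base means under 2 and were not tested, and Cox7b2 and Cox8c were listed at 0. Genes with more than 1 transcript were mostly counted low, so the low values of Cox6b2 and Cox7a2l are no sign of a tissue form. Of the common forms that pair with the second genes, Cox7a2 (0.16 ± 0.08) and Cox7b (-0.05 ± 0.08) did not pass. Cox4i1 had a base mean of only 4.60 (0.45 ± 0.37), and Cox6b1 was not tested.

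Complex V, the ATP synthase, had 5 higher genes among 13 tested (38.5%, against 16.7% of all genes tested) and no lower ones. The median log2 fold change was 0.10. At a base mean of at least 1000, 55.6% were higher, against 31.7% of all genes. The catalytic β subunit Atp5b was higher by 0.31 ± 0.05 (1.24-fold, adjusted p = 1.06e-07 by the authors' deposited table) at a base mean of 54063, and its partner in the catalytic head, the α subunit Atp5a1, by 0.28 ± 0.05 (1.21-fold, adjusted p = 2.56e-06). The ε subunit of the central stalk, Atp5e, was higher by 0.24 ± 0.09 (adjusted p = 0.0284). In the peripheral stalk, Atp5o, the subunit that confers oligomycin sensitivity, was higher by 0.23 ± 0.06 (adjusted p = 0.00129). Atp5md, a small membrane subunit, was higher by 0.20 ± 0.07 (adjusted p = 0.0113). The proton-carrying c-ring is encoded by 3 genes with the same mature product: Atp5g2 had a value of 0.09 ± 0.06 at a base mean of 7662, Atp5g1 one of 0.73 ± 0.35 at 4.12, and Atp5g3 was not tested. Neither c-ring gene tested passed, nor did the membrane subunit Atp5l (-0.01 ± 0.07). Of the 12 assembly factors, 11 were tested and Ndufaf4, described with its seed match, was the one called (9.09% higher, against 16.7%).

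**Figure D2:**
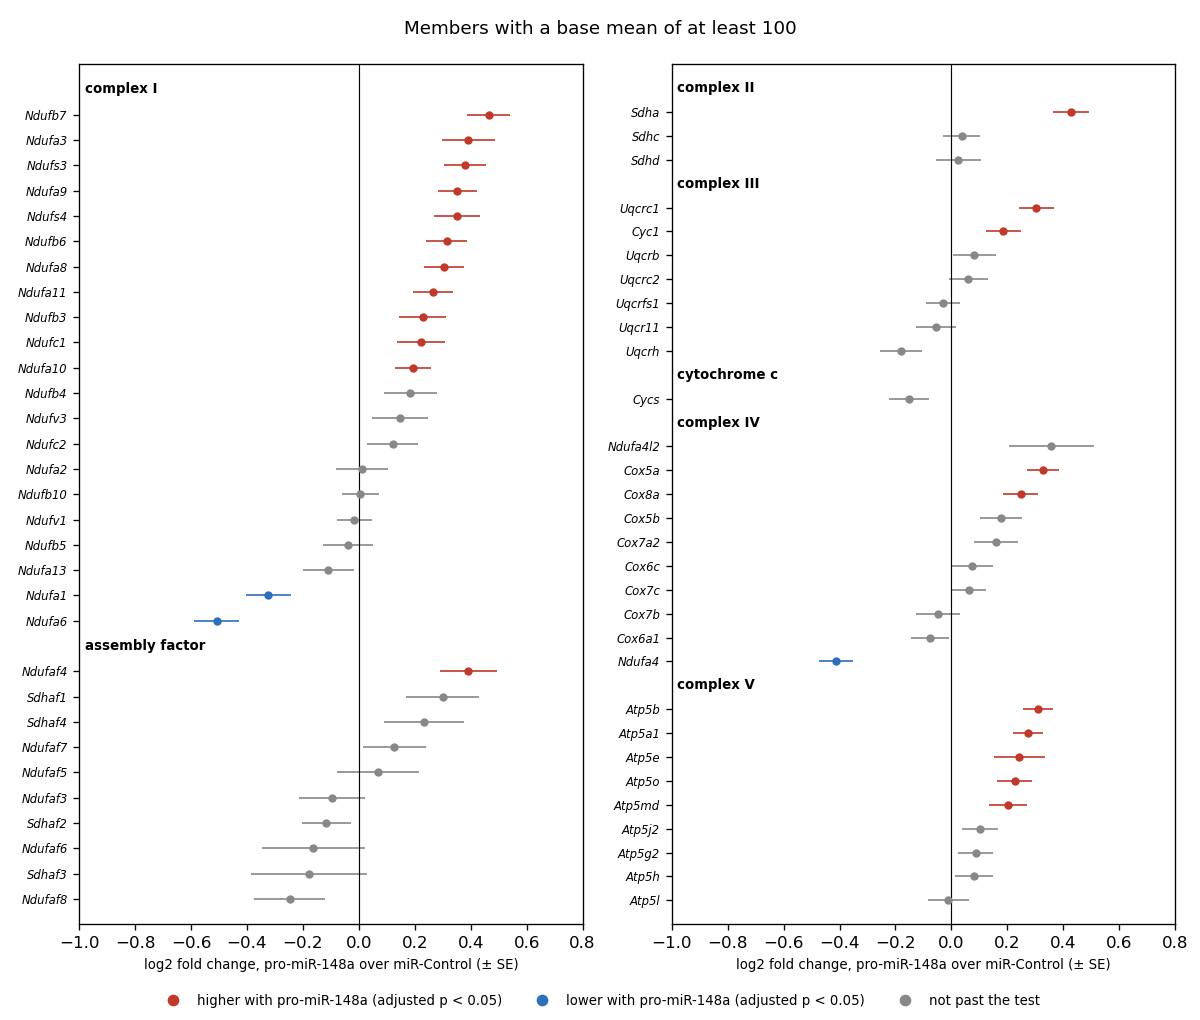
Log2 fold change (pro-miR-148a over miR-Control) with its SE for the members drawn, which have a base mean of at least 100, sorted within each complex. Red points are higher, blue points lower and grey points not past the authors' adjusted p of 0.05, and Ndufa6, Ndufa1 and Ndufa4 are the 3 genes that lie apart on the lower side.

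**Figure D3:**
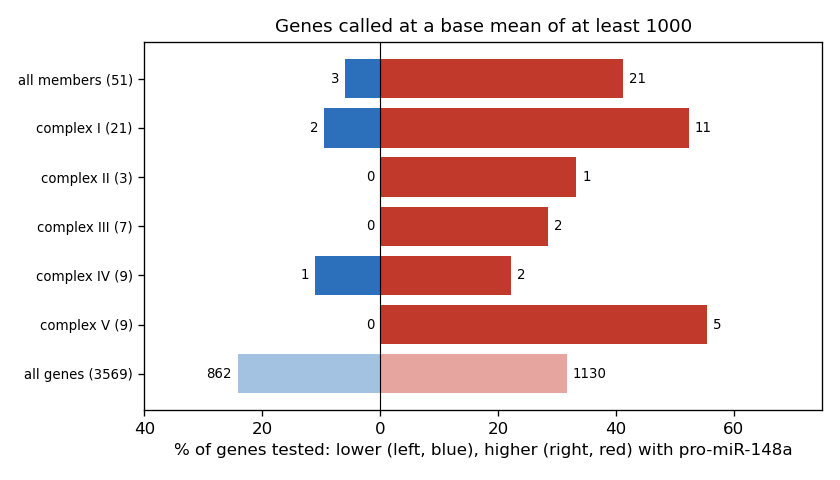
Percentage of genes called lower (left) or higher (right) with pro-miR-148a, by complex, for genes whose base mean was at least 1000, with the number of genes beside each bar and the number tested in brackets. The share higher was 52.4% in complex I, 33.3% in complex II (1 of 3 genes), 28.6% in complex III, 22.2% in complex IV and 55.6% in complex V, against 31.7% of all genes.

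Which genes could be tested followed the number of transcripts listed per gene. Of the 71 members with 1 RefSeq transcript in the authors' deposited table, 51 had a base mean of at least 1000 and 3 were listed at 0. Of the 31 members with more than 1 transcript, none reached 1000, 18 lay above 0 and under 10, and 9 were listed at 0. All 22 higher members and 3 of the 4 lower ones (all but Ndufb8) had 1 transcript, as had 66 of the 76 members tested. The same split in testing runs through all genes: 8512 of 16870 genes with 1 transcript were tested, against 2526 of 8242 with more. Over all genes, 1673 of the 1844 higher and 1656 of the 1856 lower ones had 1 transcript. Among tested genes with 1 transcript, 33.3% of members were higher, against 19.7% of all genes. Lower calls there were 4.55% of members, against 19.5%. Genes of the chain that every respiring cell uses, such as Ndufs1, Ndufs8 and Sdhb, were listed at 0, as were Uqcrq, Atp5j, Ndufa5, Ndufa12, Ndufb2 and Ndufb11. A value at 0 is therefore no sign that a gene was silent. How reads shared by transcripts were counted was not given in the sources used here. The part of this counting in any member's fold change was not tested.

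Reads can also be shared between copies of a gene, and how such reads were counted was not given in the sources used here. Ndufs5 was listed at 0 with its single transcript, while its pseudogene Ndufs5-ps had a base mean of 14.5 and a value of -0.08 ± 0.39. The retrocopy Ndufb4c had a base mean of 49.6 and a value of 0.58 ± 0.30 (adjusted p = 0.132 by the authors' deposited table). In 2 pairs the parent had the higher base mean: Ndufb4 at 2125 beside Ndufb4c, and Ndufa11 at 4765 beside Ndufa11b at 0.16. The values of the copies and their parents are uncertain, since their reads may not have been told apart, and the part of shared reads was not tested.

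**Figure D4:**
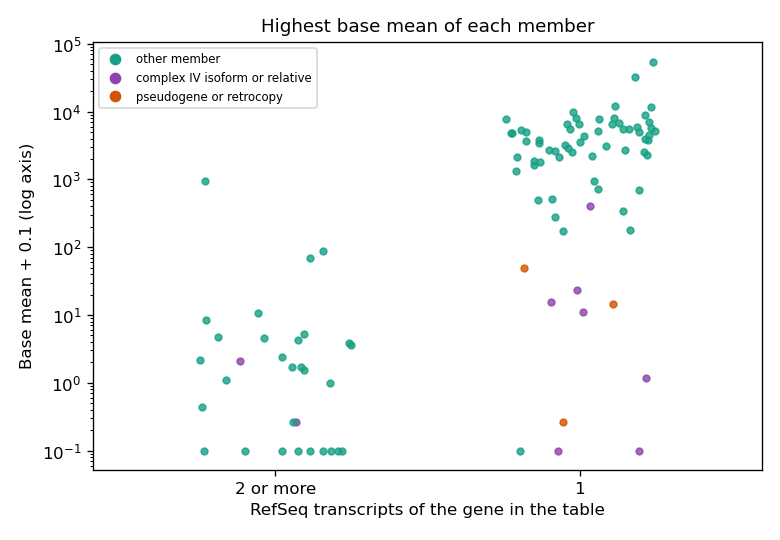
Highest base mean of each of the 102 members (log axis, with 0.1 added so that genes at 0 can be drawn) by the number of RefSeq transcripts listed for the gene. Genes with 1 transcript cluster above 1000, and those with more lie almost wholly under 100, with Ndufv3 at 956.8 as the exception.

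The members' promoters were searched for letters bound by factors known to act on respiratory chain genes, and 4 are shown because they belong to called members in both directions. The windows run from 250 bases before to 30 after the gene's start, 5′ to 3′ on the gene's strand (RefSeq, GRCm38.p6), and 81 members had one. Nuclear respiratory factor 1 binds GCGCATGC or, on the other strand, GCATGCGC. The ETS family, which includes GABPA, binds CCGGAAG or CTTCCGG. The E-box CACGTG, bound by MYC and its relatives, reads the same on both strands. Capitals mark every occurrence of these letters in the windows shown, and letters of different sets did not overlap there.
Ndufb7, higher, chr8:83566508-83566787, plus strand: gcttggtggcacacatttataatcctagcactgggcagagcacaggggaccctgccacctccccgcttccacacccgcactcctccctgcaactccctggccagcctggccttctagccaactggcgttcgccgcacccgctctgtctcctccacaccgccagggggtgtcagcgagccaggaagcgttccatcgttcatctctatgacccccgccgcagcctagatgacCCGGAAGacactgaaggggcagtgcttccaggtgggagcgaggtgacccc
Ndufa11, higher, chr17:56717512-56717791, plus strand: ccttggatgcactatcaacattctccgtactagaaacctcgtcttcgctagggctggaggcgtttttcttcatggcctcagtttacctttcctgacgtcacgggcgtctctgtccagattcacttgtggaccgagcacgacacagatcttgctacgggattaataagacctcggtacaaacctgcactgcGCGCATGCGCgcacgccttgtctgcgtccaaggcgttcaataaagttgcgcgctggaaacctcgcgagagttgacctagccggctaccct
Ndufa6, lower, chr15:82354262-82354541, minus strand: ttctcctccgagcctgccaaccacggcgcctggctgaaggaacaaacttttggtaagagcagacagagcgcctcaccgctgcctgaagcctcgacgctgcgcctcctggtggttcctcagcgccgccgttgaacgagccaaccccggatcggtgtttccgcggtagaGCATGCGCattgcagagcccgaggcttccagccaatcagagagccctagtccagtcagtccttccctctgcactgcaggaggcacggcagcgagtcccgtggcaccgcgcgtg
Ndufa4, lower, chr6:11907421-11907700, minus strand: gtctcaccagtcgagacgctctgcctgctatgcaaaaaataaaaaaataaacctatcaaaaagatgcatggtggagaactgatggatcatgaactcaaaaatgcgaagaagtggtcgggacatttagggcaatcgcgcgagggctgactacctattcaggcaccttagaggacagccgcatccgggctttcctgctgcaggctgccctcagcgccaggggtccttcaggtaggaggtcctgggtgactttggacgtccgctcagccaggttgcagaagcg
Ndufb7 has the ETS letters 20 bases before its start. Ndufa11 has both orders of the nuclear respiratory factor letters, overlapping, at 60 and 58 bases before its start. Ndufa6 has these letters once, 83 bases before its start, and Ndufa4 has none of the 3 sets.

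Across the windows, the nuclear respiratory factor letters occurred in 12 of 81 members (14.8%), against 4.79% of the 8546 tested genes with a window and 2.92% of all 27025 windows. They were found in 3 of 20 higher members, 1 of 4 lower members and 7 of 36 members not past the test. The ETS letters occurred in 22 of 81 members (27.2%), against 17.7% of tested genes and 9.48% of all windows, and in 6 of 20 higher, 0 of 4 lower and 12 of 36 members not past the test. The E-box occurred in 6 members (7.41%), against 10.6% of tested genes and 7.71% of all windows, and in none of the 20 higher or 4 lower members. Neither set of respiratory factor letters was more frequent among the higher members than among those not past the test. A match describes the letters in these windows and says nothing of binding in these cells.

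Genes that feed or build the respiratory chain were counted from lists outside the symbol rule. Together 67 of the 107 genes in these lists had an adjusted p. Of the 67, 22 were higher (32.8%, against 16.7% of all genes tested) and 5 lower (7.46%, against 16.8%), at a median log2 fold change of 0.14. Calls are more frequent at high counts: at a base mean of at least 1000, 31.7% of all genes were higher and 24.2% lower. The lists were not counted at that depth. In the TCA cycle, all 12 genes tested had positive values, against 48.9% of all genes tested. Of the 12, 4 passed (33.3%, against 16.7%), each of them higher. Among them were Idh2 (0.33 ± 0.07, adjusted p = 1.15e-05 by the authors' deposited table) and Idh3a (0.32 ± 0.07), both isocitrate dehydrogenase genes, and Suclg1 (0.23 ± 0.08), a subunit of succinyl-CoA ligase. Citrate synthase (Cs), the entry step, had a value of 0.02 ± 0.06 and did not pass. The list's median was 0.10.

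At pyruvate entry, 4 of 10 genes tested were higher (40%, against 16.7% of all genes tested) and 1 was lower (10%, against 16.8%). The list's median was 0.20. The higher genes encode subunits of the pyruvate dehydrogenase complex, which turns pyruvate into acetyl-CoA: Pdhx (0.42 ± 0.10), Dlat (0.33 ± 0.07), Pdhb (0.24 ± 0.07) and Pdha1 (0.23 ± 0.06). The lower gene was Pdk4, a kinase that inhibits this complex, at -2.18 ± 0.30 (4.54-fold, adjusted p = 4.97e-12 by the authors' deposited table) and a base mean of 69.4. Pdk1 (-0.17 ± 0.19) and Pdk3 (-0.06 ± 0.09), other kinases of the complex, did not pass. Enzyme subunits and the inhibiting kinase Pdk4 thus differed in direction.

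Of 6 genes tested that deliver electrons to ubiquinone beside complexes I and II, 3 were higher (50%, against 16.7% of all genes tested). They were Prodh, proline dehydrogenase (0.46 ± 0.13), Dhodh, which serves pyrimidine synthesis (0.39 ± 0.14), and Etfdh, which takes electrons from fatty acid oxidation (0.20 ± 0.07). Among 6 tested genes for carriers and channels of the mitochondrial membranes, 3 were higher (50%, against 16.7%) and 1 was lower (16.7%, against 16.8%). The higher ones were the ADP/ATP exchangers Slc25a4 (0.48 ± 0.06) and Slc25a5 (0.45 ± 0.06) and the phosphate carrier Slc25a3 (0.30 ± 0.05). Ucp2, an inner membrane carrier of the uncoupling protein family, was lower at -1.02 ± 0.09 (2.02-fold, adjusted p = 2.7e-27 by the authors' deposited table). The exporters of ATP and the importer of phosphate thus lay on the same side as the ATP synthase subunits Atp5a1 and Atp5b, and Ucp2 on the other.

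The factors that assemble complex IV held calls in both directions, with 6 of 15 tested higher (40%, against 16.7% of all genes tested) and 2 lower (13.3%, against 16.8%). The highest values were those of Cmc2 (0.73 ± 0.16), the copper-handling protein Cox19 (0.53 ± 0.09), Coa7 (0.48 ± 0.16) and Coa6 (0.45 ± 0.13). The lower ones were Cmc1 (-0.39 ± 0.11) and Pet100 (-0.29 ± 0.10). For complex I assembly, 1 of 6 tested was higher and 1 lower, each 16.7%, about the shares of all genes tested. They were Tmem126b (0.42 ± 0.16) and Acad9 (-0.34 ± 0.09), and both act in the same assembly complex. Neither of 2 tested factors for complexes II and III passed (Uqcc2 at 0.49 ± 0.37 and Uqcc3 at 0.03 ± 0.11), nor did Atpaf1 (0.05 ± 0.39) or the ATP synthase inhibitor Atpif1 (-0.11 ± 0.08). The 13 mitochondrially encoded subunits, which are among the 107 list genes, were not found by symbol in the authors' deposited table and have no values here.

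Among regulators of mitochondrial gene expression, 1 of 8 tested was higher (12.5%, against 16.7% of all genes tested) and none was lower. The higher one was Esrra, a nuclear receptor known to activate respiratory chain genes, at 0.30 ± 0.07 (1.23-fold, adjusted p = 0.000201 by the authors' deposited table). Gabpa (-0.02 ± 0.07), Yy1 (-0.10 ± 0.07) and Tfam, the factor that packages mitochondrial DNA (0.11 ± 0.09), did not pass. Nrf1 had a base mean of 0.17 over its highest of 10 transcripts and was not tested. Ppargc1a, Ppargc1b, Pprc1, Tfb2m and Myc were listed at 0, each with more than 1 transcript.

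**Figure D5:**
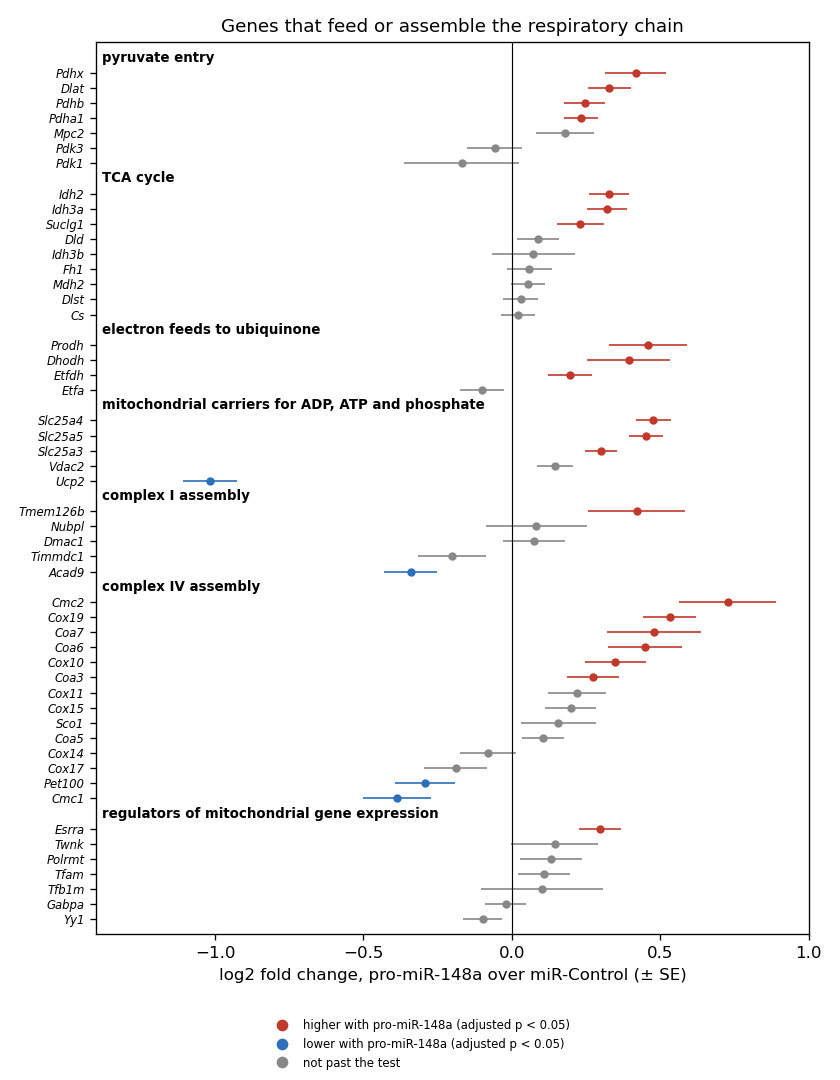
Log2 fold change (pro-miR-148a over miR-Control) with its SE for genes drawn from the lists outside the symbol rule, with a base mean of at least 100, coloured as higher (red), lower (blue) or not past the authors' adjusted p of 0.05 (grey). The lists for assembly of complexes II and III and for ATP synthase factors, in which no gene was called, are not drawn, and Ucp2, at -1.02, lies farthest to the lower side.

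The samples carried keratinocyte markers at high counts (base means of 630448 for Krt5, 207541 for Perp and 36792 for Cdh1). Some fibroblast and melanocyte markers were also well above 1000 (11119 for Col1a1, 4995 for Col3a1, 8101 for Pmel and 6493 for Dct). Others of these 2 lists had fewer counts, such as Thy1 (549) and Mlana (389). Krt14 (40.3, with 3 transcripts) and Trp63 (listed at 0, with 8 transcripts) show the low values of genes with several transcripts. Of 7 keratinocyte markers tested, Krt5 was higher with pro-miR-148a (0.49 ± 0.06), which is 14.3%, against 16.7% of all genes tested. Sfn (-0.21 ± 0.06) and Cdh1 (-0.21 ± 0.06) were lower (28.6%, against 16.8%). Of 7 fibroblast markers tested, 4 were lower (57.1%, against 16.8% of all genes tested) and none higher. Their median was -0.42, with values from -0.85 to -0.13. Of 4 melanocyte markers tested, 1 was lower (25%, against 16.8%). Both immune markers tested were lower (100%, against 16.8%) at base means under 50, and the other 4 immune markers were at 0. Of 4 endothelial markers 2 were tested: Kdr was higher (2.73 ± 0.18; 50%, against 16.7%) and Vwf lower (-0.81 ± 0.26; 50%, against 16.8%). Pecam1 was at 0 and Cdh5 had a base mean of 0.33. None of the 5 muscle markers was tested. The summed level of a marker list in each group is unknown without values per library. In bulk samples, fewer cells of a type and less RNA per cell cannot be told apart, and the part of these markers in the members' values was not tested.

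The authors' deposited table of gene ontology categories held 951 categories, without a statement of which changed genes entered it. Cytochrome-c oxidase activity had 4 changed genes of 8, the coupling factor F(o) of ATP synthase 3 of 4, mitochondrion 18 of 75 and NADH dehydrogenase activity 1 of 5. Their p-values for over-representation in the authors' deposited table lay between 0.0858 and 0.692, and each became 1 after adjustment.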

How the data were processed

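Per the submitters' processing notes, DESeq2 and the mouse build mm9 were used, with no version or role. The aligner, read counter, strand handling and annotation were not given in the sources used here. The authors deposited, per the file headers, 1 line a RefSeq transcript: the base mean, a signal that averages normalised counts, the log2 fold change with its standard error, a Wald score, and a p-value with its adjusted p-value; the Wald score equalled log2 fold change over standard error within 1.69e-07. The authors' ontology table holds numbers of genes and p-values. Adjusted p-values were given to the 11757 transcripts with a base mean of at least 3.56. The standard error never exceeded 0.39, also at low base means. Whether fold changes were shrunk toward 0 was not stated; if so, folds at low base means are understated.

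The table has no value per library, so the counts could not be tested again and the authors' adjusted p is the test reported; new adjusted p-values were computed from their deposited values only for the alternatives. The sign of the deposited fold change was turned, as described with the results. Transcripts were paired with symbols by RefSeq accession (42739 of 42885 matched, GRCm38.p6), and no coordinates of the authors' build are given. Intervals are the log2 fold change ± the normal 95% range of the deposited standard error. The longest coding-transcript 3′ UTR per gene (at least 20 bases) was searched for seed matches. The alternatives tried were the choice of transcript, an adjusted p of 0.01, a higher-to-lower ratio at least 25% above 1, adjustment without the filter on base mean, a base mean of at least 100, recentred fold changes (the recomputed Wald test was tested on simulated data) and subunits alone. Python 3.11.15, pandas 2.3.3, numpy 2.4.6, scipy 1.17.1 and matplotlib 3.10.9 were used.

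Members and lists were chosen with earlier results of these data known. The genes named are every called member; of those not called, the 2 with the highest base mean in each complex, isoform families, genes with TGCACTG and the 2 on each side of the threshold; and of each list outside the rule up to 4 called genes with the largest change, or its 2 with the highest base mean. Some genes that this rule names are not reported here. Cycs, the gene copies, genes listed at 0, Ndufv3, Cs, Pdha1, Pdk1, Pdk3, Cmc1, Pet100, Tfam, Nrf1 and the markers named were chosen after their values were seen.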

Additional observations from a re-analysis of the deposited data

How the results depend on the processing

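The count of 22 higher members stood between 21 and 24 when each transcript was counted singly, when the transcript with the lowest p stood for the gene, under adjustment without the filter on base mean, at a base mean of at least 100, after recentring on the median of all genes and with subunits alone. It was 16 at an adjusted p of 0.01 (all genes: 13.1%) and 8 where the higher-to-lower ratio also had to lie at least 25% above 1, which is 10.5% of the members tested against 11.8% of all genes, so the excess of higher members was absent there. This was the one setting that moved it by more than 1.5 times. The count of 4 lower members was 3 at a base mean of at least 100, which leaves out Ndufb8, and 4 otherwise. The members' median log2 fold change stayed between 0.07 and 0.12. Among the 76 members tested, recentring turned the sign of Atp5l, to 0.00073, past the test in neither case, and brought Cox5b (adjusted p = 0.0388) and Ndufa4l2 (adjusted p = 0.0492) past it; adjustment without the filter left Ndufc1 short (adjusted p = 0.0518). At 0.01, Atp5e, Atp5md, Cyc1, Ndufa10, Ndufb3 and Ndufc1 no longer passed.

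No paired analysis was possible because the authors' deposited table holds no value per library; leaving out each replicate in turn was not run for the same reason. Every direction rests on the reading of the sign. Members with several transcripts were mostly counted too low to show changes of the size seen here, and without library totals no counting interval can be given.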
